A study of Mus musculus with 31 samples.

Results

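Nlrp12 and 5 genes of the Ifi200 cluster, Mndal, Ifi203, Ifi204, Ifi205 and Aim2, were followed across the livers of 4 inbred mouse strains. The genes were taken by symbol through the array's annotation, and every probe set that carried one of the symbols was kept, which gave 10 of the 44661 probe sets other than controls. Of these, 5 carried a single symbol: 1440921_at for Nlrp12, 1426906_at and 1452231_x_at for Mndal, 1442828_at for Ifi203 and 1419603_at for Ifi204. The other 5 carried several symbols of the cluster, so their signal could not be assigned to 1 gene. Ifi205 appeared on such shared probe sets alone, and Aim2 had no probe set under its symbol in the annotation used and was not analysed here. The genes were chosen on measured values of these arrays, and since the choice does not name those values, their vehicle levels are given as a description, with no test.

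The mice were females of 4 strains, MA/MyJ and NZW/LacJ, SM/J and also WSB/EiJ, aged 8 to 10 weeks. They received sterile water, the vehicle, or 600 mg/kg of PF-04287881 by oral gavage once daily for 7 days. The left liver lobe was taken 24 hours after the last dose. Each of the 8 groups held 4 animals, except the treated WSB/EiJ group, in which 3 were left after a gavage death. The series recorded vacuolated Kupffer cells, the resident macrophages of the liver, in treated MA/MyJ and NZW/LacJ, and single cell necrosis in treated NZW/LacJ. Values were log2 RMA signals, each array being 1 animal. Whole liver was measured, so a change in the number of cells of a type and a change in RNA per cell cannot be told apart.

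Nlrp12 encodes a NOD-like receptor, best known in myeloid cells, where it restrains NF-κB signalling. The Ifi200 cluster is a run of neighbouring mouse genes that encode PYHIN proteins, most of which pair a pyrin domain with a DNA-binding HIN domain. Interferon induces many of them. Aim2 binds DNA in the cytosol and assembles an inflammasome, and Ifi204 is a mouse relative of the human DNA sensor IFI16.

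In the GRCm38.p6 gene order, Mndal, Ifi211, Ifi203, Ifi202b and Ifi205 follow each other on chromosome 1, with Ifi204 and the pseudogene Ifi203-ps just before Mndal. Nlrp12 lies on chromosome 7. Promoter stretches of 4 of the genes are shown because the letters before the start are close to identical in Mndal and Ifi203, and because 3 of the 4 hold the same type of motif. They were read from RefSeq promoter windows of GRCm38.p6, which run from 250 bases before to 50 after each start and come from the C57BL/6J reference, none of the strains studied. Capitals mark GAAANNGAAA, the core of the interferon-stimulated response element, in Mndal (chr1:173880188-173880283, minus strand), Ifi203 (chr1:173942493-173942587, minus strand) and Ifi205 (chr1:174031820-174031949, minus strand). In Nlrp12 (chr7:3249850-3249978, minus strand) they mark TTCNNNGAA, the core of the interferon gamma-activated site.
Mndal: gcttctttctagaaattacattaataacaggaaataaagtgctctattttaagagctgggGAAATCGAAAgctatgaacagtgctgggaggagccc
Ifi203: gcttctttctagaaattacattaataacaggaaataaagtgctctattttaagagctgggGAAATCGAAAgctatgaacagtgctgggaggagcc
Ifi205: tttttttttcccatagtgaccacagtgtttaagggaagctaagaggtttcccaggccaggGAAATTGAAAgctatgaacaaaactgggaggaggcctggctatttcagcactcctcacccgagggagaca
Nlrp12: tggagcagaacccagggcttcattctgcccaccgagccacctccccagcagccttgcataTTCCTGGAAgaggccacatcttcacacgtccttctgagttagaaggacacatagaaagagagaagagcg

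The windows of Mndal and Ifi203 were 97.6% identical over 289 aligned bases, and those of Mndal and Ifi205 were 69.4% identical over 180. The windows of Mndal and Ifi203 shown are 1 of 2 that each gene has for different starts. The second Mndal window held the first motif on the opposite strand, 54 bases before its start, and the second Ifi203 window did not hold it. In the windows shown, the first motif began 36 bases before the start in Mndal, 35 before it in Ifi203 and 134 before it in Ifi205, where it also occurred 23 bases after the start on the opposite strand. Both strands were searched. It was present in 3.44% of 32851 windows, or in 3.99% of 27025 genes, and in 9 of the 12 PYHIN genes that had a window. On the gene's own strand it read GAAATCGAAA in 7 of these 9 and GAAATTGAAA in 2. The windows of Aim2, Ifi209 and Ifi202b did not hold these letters, and neither did that of Nlrp12. The second motif was present in 8.30% of windows. These matches describe letters of a reference genome and were not tested as sites.

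One array went against its label. Its title names WSB/EiJ treated animal 3. Strain scales were built from the vehicle means of probe sets that differed by more than 2 log2 units between 1 strain and each of the others, leaving the genes described here out, with 0 for the other strains and 1 for the strain itself. On the WSB/EiJ scale of 68 probe sets this array lay at 0.00776, and the 6 remaining WSB/EiJ arrays ran from 0.751 to 1.12. On the NZW/LacJ scale of 20 probe sets it lay at 1.02, just above the 0.870 to 1.01 of the NZW/LacJ arrays, while the remaining arrays of other strains did not exceed 0.0983. Along the difference between vehicle and treated NZW/LacJ, set to 0 and 1 over 5006 probe sets, it lay at 0.0795. It is called the array labelled WSB/EiJ treated animal 3, and differences in WSB/EiJ, and the counts and F tests that this array enters, are given with and without it. WSB/EiJ vehicle animal 4, at 0.751, was the lowest of the remaining WSB/EiJ arrays on its own scale.

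Nlrp12 had the widest spread of strain levels among the 10 probe sets. In vehicle animals 1 to 4, its log2 level was 11.07, 10.99, 10.68 and 11.51 in MA/MyJ. It was 10.40, 10.85, 10.54 and 10.54 in NZW/LacJ. In WSB/EiJ it was 8.43, 9.56, 9.18 and 7.07. In SM/J it was 7.51, 5.73, 5.42 and 5.67. MA/MyJ and NZW/LacJ overlapped at the top, every NZW/LacJ animal lay above every WSB/EiJ animal, and WSB/EiJ lay above SM/J except that SM/J animal 1 exceeded WSB/EiJ animal 4. The strain means ran from 11.07 ± 0.34 (SD, n = 4) in MA/MyJ to 6.08 ± 0.96 (SD, n = 4) in SM/J, a difference of 4.98 log2 units or 31.6-fold. The span exceeded that of 99.953% of all probe sets.

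Both Mndal probe sets, 1426906_at and 1452231_x_at, split the strains into a high and a low pair. Mndal, the myeloid nuclear differentiation antigen-like gene, encodes a nuclear PYHIN protein. On 1426906_at the vehicle log2 levels of animals 1 to 4 were 7.08, 6.92, 6.69 and 7.38 in MA/MyJ and 7.52, 7.76, 7.50 and 7.63 in NZW/LacJ. They were 3.88, 3.73, 3.63 and 4.25 in SM/J and 3.56, 4.00, 3.84 and 4.31 in WSB/EiJ. The low pair lay below MA/MyJ with a gap of 2.38 log2 units between the nearest animals. NZW/LacJ lay above MA/MyJ with no overlap, by 0.58 in the means, and SM/J and WSB/EiJ overlapped. On 1452231_x_at the order of the high pair was the same, with a difference of 0.58, and the gap below MA/MyJ was 2.12. The 2 probe sets name the same gene and are no independent evidence of each other.

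**Figure D1:**
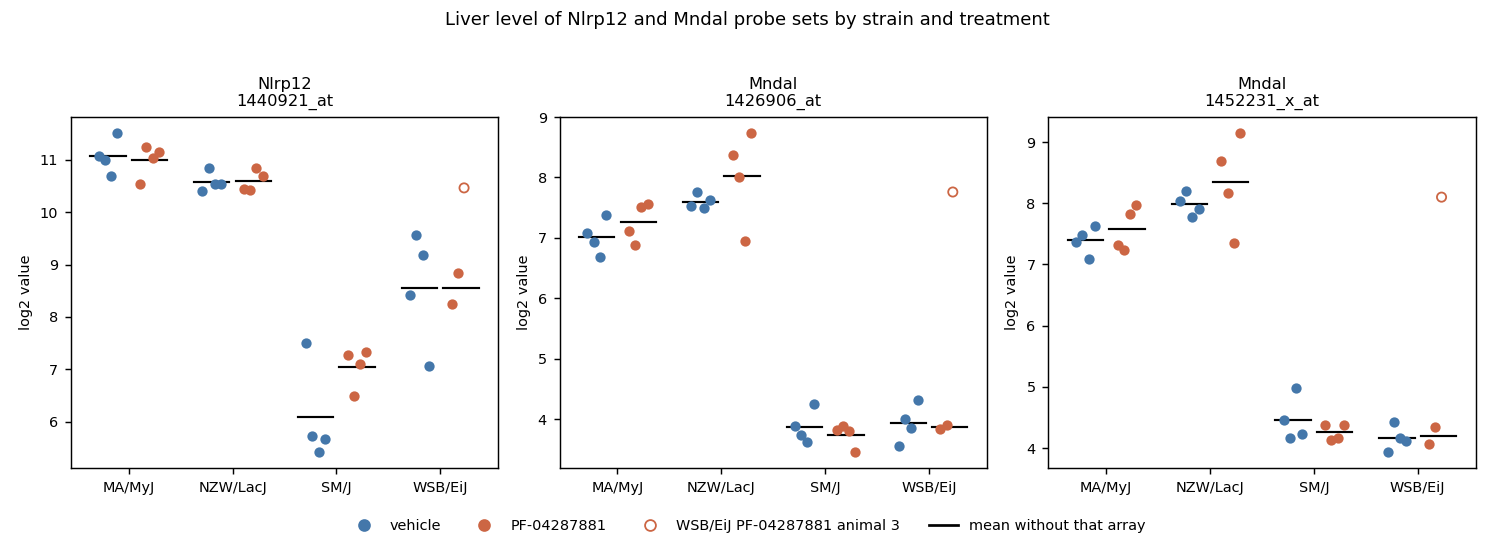
Log2 level of the Nlrp12 probe set and of both Mndal probe sets in each animal, by strain and treatment; points are animals, bars are group means without the array labelled WSB/EiJ treated animal 3, and the open circle is that array. The open circle lies at 10.46 for Nlrp12 and at 7.76 and 8.10 for Mndal, far above the other WSB/EiJ arrays for Mndal and among the NZW/LacJ arrays for all 3.

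The mean of the 8 vehicle animals of MA/MyJ and NZW/LacJ was set against that of the 8 of SM/J and WSB/EiJ. In 6 of the 10 probe sets every animal of the first pair exceeded every animal of the second, where 0.952% of all probe sets did so. No member probe set showed the opposite split, against 0.665% of all. The differences were 3.50 log2 units for Nlrp12, 3.41 for Mndal 1426906_at and 3.37 for Mndal 1452231_x_at, or 11.3-fold, 10.6-fold and 10.4-fold. Since the genes were chosen on unnamed values of these arrays, nothing is read from this count against its background.

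The shared probe sets did not all share this pattern. Shared probe set 1452348_s_at, annotated to Mndal, Ifi211, Ifi205 and Ifi204, was 3.36-fold higher in MA/MyJ and NZW/LacJ. Its vehicle means were 5.45 ± 0.28, 6.25 ± 0.29, 4.18 ± 0.23 and 4.02 ± 0.14 (SD, n = 4 each) in MA/MyJ and NZW/LacJ, then SM/J and WSB/EiJ. Shared probe set 1452349_x_at, annotated to Ifi211 and Ifi205, was 2.10-fold higher, with means of 6.46 ± 0.21, 6.96 ± 0.16, 5.87 ± 0.19 and 5.41 ± 0.36 (SD, n = 4 each). These 2 sets had NZW/LacJ above MA/MyJ and MA/MyJ above SM/J with no overlap, while SM/J and WSB/EiJ overlapped.

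Of the 3 probe sets annotated to Ifi203, Ifi203-ps and unnamed loci, each behaved differently. Shared probe set 1448775_at was 3.23-fold higher in MA/MyJ and NZW/LacJ, at 7.54 ± 0.18 and 7.58 ± 0.02, than in SM/J and WSB/EiJ, at 5.59 ± 0.25 and 6.15 ± 0.33 (SD, n = 4 each). Shared probe set 1425008_a_at had strain means within 0.20 log2 units of each other, and the animals of all strains overlapped. Shared probe set 1451567_a_at ran the other way, at 5.93 ± 0.26 and 6.05 ± 0.28 in MA/MyJ and NZW/LacJ against 6.80 ± 0.23 and 6.64 ± 0.48 in SM/J and WSB/EiJ (SD, n = 4 each). It overlapped between the pairs through 1 NZW/LacJ animal, which stood level with the lowest WSB/EiJ animal at 6.39. Different probe sets of 1 annotation thus disagreed on the strain order. The probe sequences were not used here, so whether strain differences in the sequence under the probes move these levels was not tested.

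The probe sets of Ifi203 and Ifi204 alone were low and close between strains. Ifi203 on 1442828_at had vehicle means from 4.85 ± 0.06 in MA/MyJ to 5.19 ± 0.20 in NZW/LacJ (SD, n = 4 each). Ifi204 on 1419603_at had means from 4.78 ± 0.10 in SM/J to 5.20 ± 0.12 in NZW/LacJ (SD, n = 4 each). In both, every strain overlapped its neighbour in the order. They lay above only 20.2% to 26.9% of all probe sets, and no detection calls were used, so whether these levels exceed background was not tested.

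**Figure D2:**
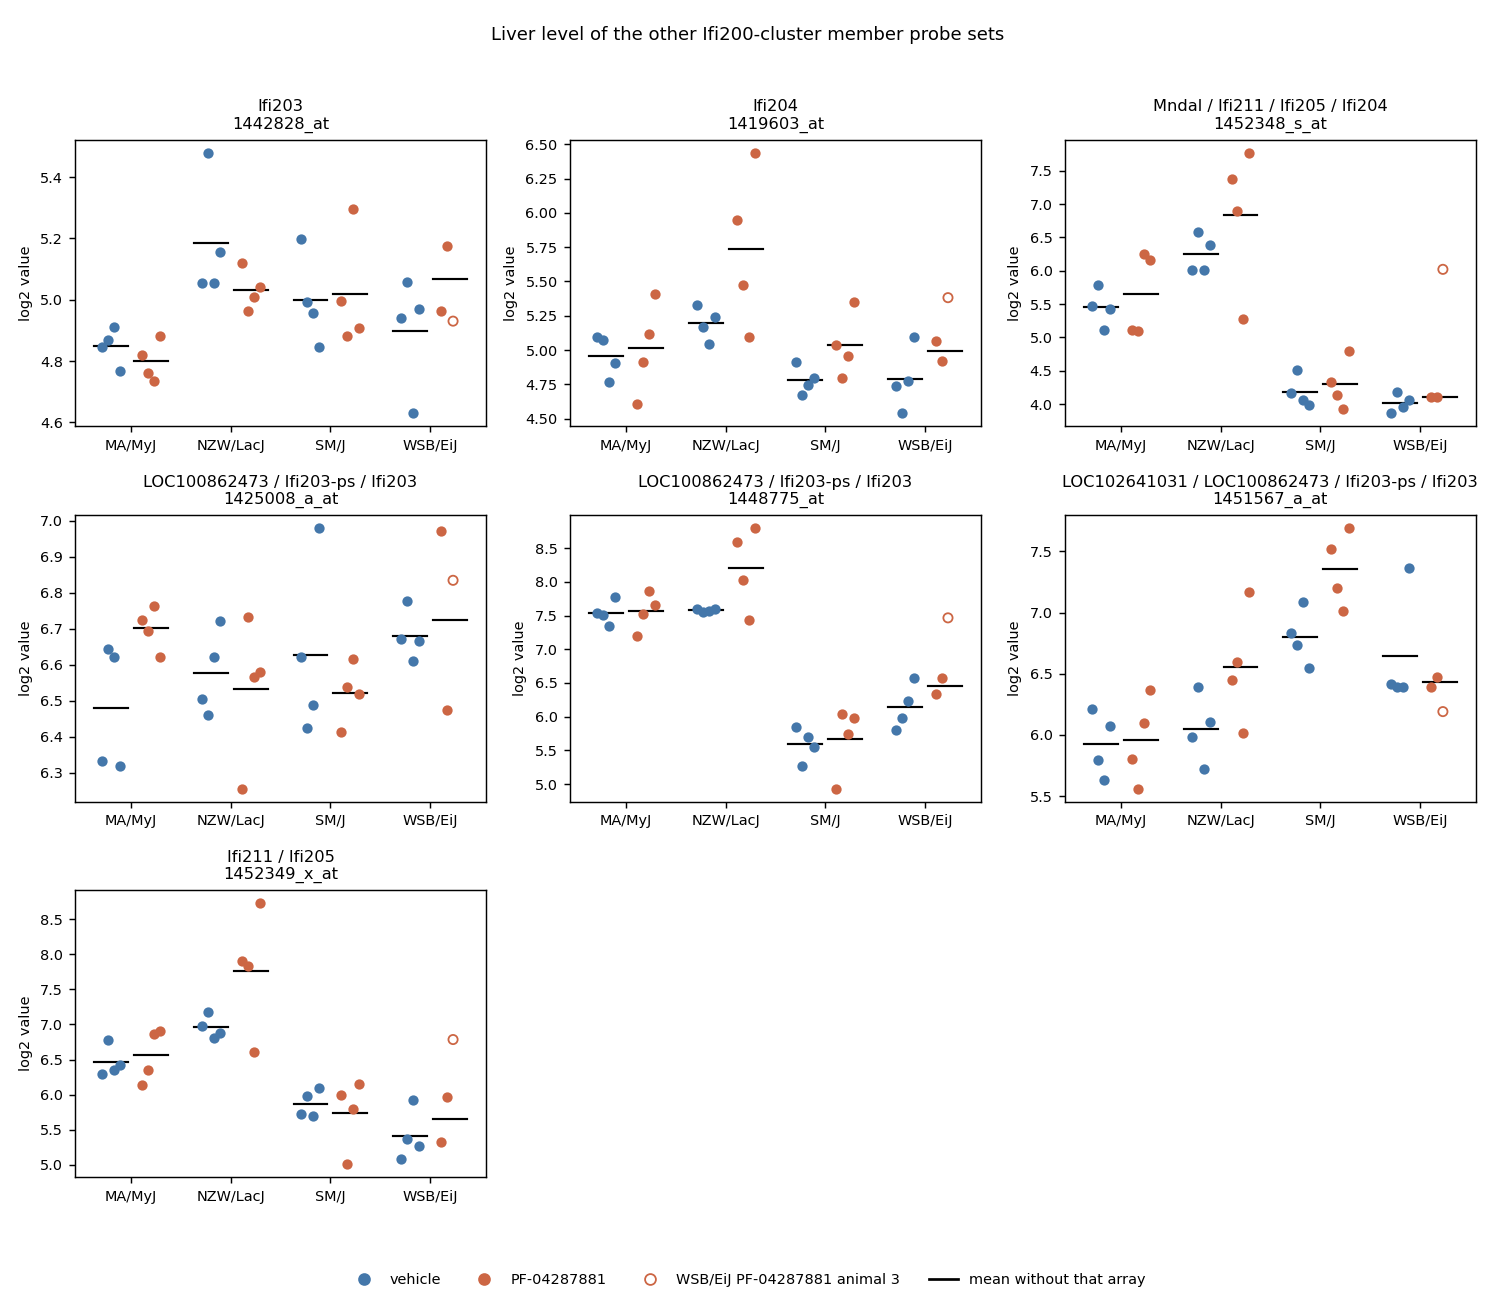
Log2 level of the Ifi203 and Ifi204 probe sets and of the 5 shared probe sets in each animal, by strain and treatment, with the symbols each probe set is annotated to; points, bars and the open circle are as defined in the legend, and each panel has its own vertical axis. Shared probe sets 1452348_s_at, 1448775_at and 1452349_x_at are higher in MA/MyJ and NZW/LacJ, 1451567_a_at is lower there, and 1425008_a_at shows no ordering of the strains.

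Other PYHIN genes of the cluster gave 6 more probe sets, for 4 of the 13 genes listed. Ifi202b, an interferon-induced gene known to vary between mouse strains, ran opposite to Mndal on 1421551_s_at. Its mean was 5.26 in MA/MyJ and NZW/LacJ vehicle animals and 6.90 in SM/J and WSB/EiJ, with every animal of the first pair lower. Shared probe set 1457666_s_at, which carries Ifi202b and an unnamed locus, had means of 3.87 and 4.95 but overlapped, and so did the probe sets of Ifi209, Ifi213 and Ifi207. Along the gene order, probe sets with and without the higher level in MA/MyJ and NZW/LacJ lay side by side between Ifi204 and Ifi205.

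**Figure D3:**
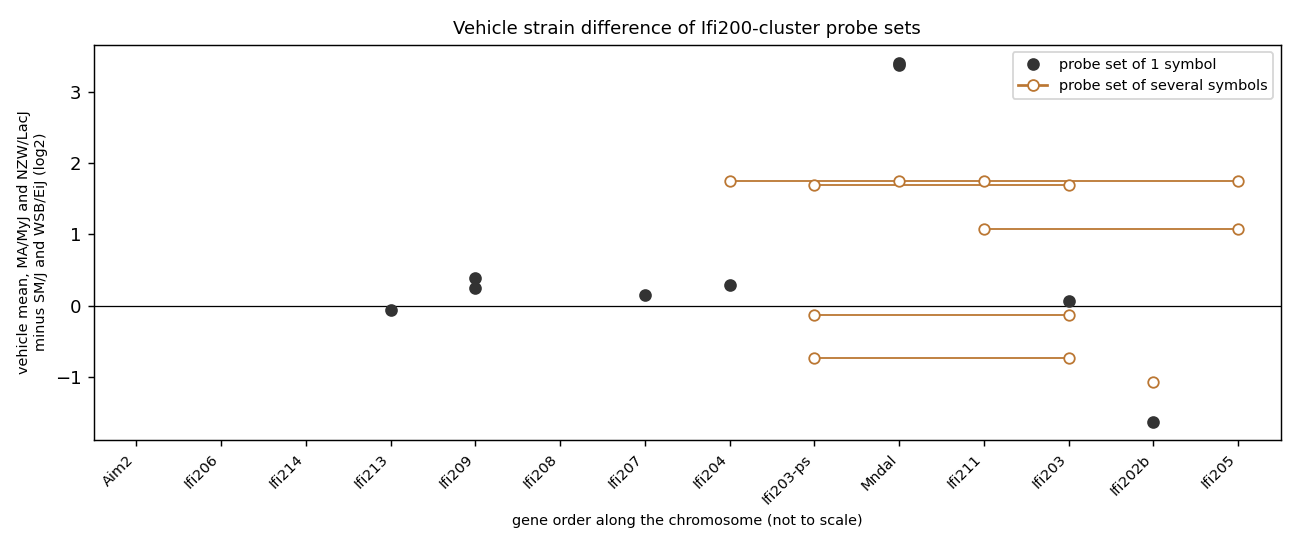
Vehicle mean of MA/MyJ and NZW/LacJ minus that of SM/J and WSB/EiJ, in log2 units, for each Ifi200-cluster probe set placed by gene order; filled points carry 1 symbol, and open points joined by a line are 1 probe set drawn at each of its cluster symbols. Mndal stands at 3.41 and 3.37, both Ifi202b probe sets and shared probe set 1451567_a_at lie lowest, below 0, and the genes with no point had no probe set in the annotation used.

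Cell type markers were set beside the strain levels. The neutrophil list, with 10 of 12 markers measured, had vehicle means of 6.25 to 6.40 in the 4 strains. The Kupffer cell list, with all 14 markers measured, had vehicle means of 9.56 in NZW/LacJ, 9.44 in SM/J, 8.996 in MA/MyJ and 8.44 in WSB/EiJ. From high to low, the Nlrp12 means ran MA/MyJ, NZW/LacJ, WSB/EiJ and SM/J. The monocyte list, with 7 of 9 measured, ran from 6.58 in WSB/EiJ to 6.76 in NZW/LacJ, and the hepatocyte list, with 8 of 10 measured, from 14.27 to 14.33. The part of cell composition in the strain differences was not tested.

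In treated animals, which are separate mice from the vehicle groups, strain differences were tested across all probe sets. The choice of genes may have used these values too, so the tests describe the pattern and are no independent support of it. The log2 level of Nlrp12 in treated animals 1 to 4 was 10.54, 11.24, 11.03 and 11.15 in MA/MyJ and 10.44, 10.42, 10.84 and 10.70 in NZW/LacJ. It was 7.28, 6.49, 7.11 and 7.33 in SM/J. In WSB/EiJ it was 8.25 and 8.84 in animals 1 and 2 and 10.46 in the array labelled animal 3. SM/J lay lowest, and WSB/EiJ lay between it and the 2 high strains unless that array was included, which reached the NZW/LacJ range. The moderated F test of limma over the 4 strains passed for Nlrp12 with an adjusted p of 3.97e-07, and of 1.03e-08 without that array.

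The Mndal levels of treated animals kept the split. On 1426906_at they were 7.11, 6.88, 7.51 and 7.56 in MA/MyJ and 8.37, 8.00, 6.95 and 8.74 in NZW/LacJ. In SM/J they were 3.82, 3.88, 3.80 and 3.45. In WSB/EiJ animals 1 and 2 they were 3.84 and 3.90, and 7.76 in the array labelled animal 3. NZW/LacJ exceeded SM/J by 4.28 ± 0.49 log2 units (limma, adjusted p = 8.13e-07). NZW/LacJ exceeded WSB/EiJ by 2.85 ± 0.53 (adjusted p = 0.000348), and by 4.15 ± 0.30 (limma, adjusted p = 3.40e-11) without that array. The difference between SM/J and WSB/EiJ was -1.43 ± 0.53 and did not pass (limma, adjusted p = 0.0642), and it was -0.13 ± 0.30 (adjusted p = 0.810) without it.

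In all, 8 of the 10 probe sets passed the F test among treated animals, against 31.7% of all probe sets, and 8 of 10 against 38.8% without the array labelled WSB/EiJ treated animal 3. The exceptions were Ifi203 on 1442828_at (adjusted p = 0.186) and shared probe set 1425008_a_at (limma, adjusted p = 0.261), at 0.149 and 0.380 without that array. Between NZW/LacJ and SM/J, 8 probe sets passed, 7 of them higher in NZW/LacJ, against a background of 5.54%. Between MA/MyJ and NZW/LacJ, 2 passed, Ifi204 and shared probe set 1452349_x_at, both higher in NZW/LacJ, against 9.61%. Without the array labelled WSB/EiJ treated animal 3, 8 passed in the first comparison, against 7.26%, and 5 in the second, against 12.1%. The 3 added in the second were both Mndal probe sets (limma, adjusted p = 0.0411 and 0.0402) and 1452348_s_at (adjusted p = 0.0205), again higher in NZW/LacJ. The genes were chosen on values of these arrays that the choice does not name, so treated values may be among them. These tests therefore describe the strain pattern in treated animals and come from no independent choice of genes.

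None of the 10 probe sets of Nlrp12 and the Ifi200-cluster genes followed here passed the test of PF-04287881 against vehicle in any strain. The count was 0 of 10 in each of the 4 strains by limma, with and without the array labelled WSB/EiJ treated animal 3. In the order MA/MyJ and NZW/LacJ, then SM/J and WSB/EiJ, the shares of all probe sets that passed were 2.09%, 11.2%, 1.02% and 9.61%, and 3.37%, 14.1%, 2.02% and 17.9% without that array. At an unadjusted p under 0.05 the counts were 0, 4, 2 and 3 with all arrays and 0, 4, 2 and 0 without it. The share of all probe sets at that unadjusted threshold is not given here, so these counts are not read against a background. With limma's array weights 3 of the 10 passed in NZW/LacJ and 1 in SM/J, but the share of all probe sets under those weights is not given here. In WSB/EiJ 2 passed as higher without treated animal 1, against 1.41% of all probe sets, or without animal 2, against 2.57%, fits that keep the array labelled animal 3 and 1 other. No probe set of the 10 had all treated animals outside the range of the vehicle animals of its strain. Of all probe sets, in the same order, 5.73%, 11.0%, 4.14% and 6.01% had all treated animals above that range and 5.16%, 10.3%, 5.35% and 5.91% below it, where WSB/EiJ had 15.7% and 14.8% without that array. In the same order, the median difference over the 10 was 0.08, 0.46, 0.05 and 0.62, the last 0.07 without that array, beside medians over all probe sets of -0.02, -0.03, -0.02 and 0.03.

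Nlrp12 levels after PF-04287881 lay within or near the vehicle range of each strain. The difference was -0.07 ± 0.44 log2 units in MA/MyJ (limma, adjusted p = 0.972) and 0.02 ± 0.44 in NZW/LacJ (adjusted p = 0.988). In SM/J it was 0.97 ± 0.44 (adjusted p = 0.396), where the 4 treated animals, at 6.49 to 7.33, stood above vehicle animals 2 to 4 but below vehicle animal 1. In WSB/EiJ it was 0.62 ± 0.47 (limma, adjusted p = 0.485) with all arrays and -0.02 ± 0.47 (adjusted p = 0.989) without the array labelled animal 3.

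In WSB/EiJ the Mndal difference rested on that array. With it, the difference was 1.24 ± 0.53 on 1426906_at (limma, adjusted p = 0.159) and 1.34 ± 0.54 on 1452231_x_at (adjusted p = 0.123). Without it, the values were -0.06 ± 0.30 and 0.04 ± 0.30 (limma, adjusted p = 0.931 and 0.957). The 2 remaining treated WSB/EiJ animals lay within the vehicle range on both probe sets. Shared probe set 1452348_s_at went from 0.73 ± 0.43 to 0.09 ± 0.41, and 1448775_at from 0.65 ± 0.28 to 0.31 ± 0.29. The array itself stood at 6.02 and 7.47 on those sets, where the other treated WSB/EiJ animals reached 4.11 and 6.57.

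**Figure D4:**
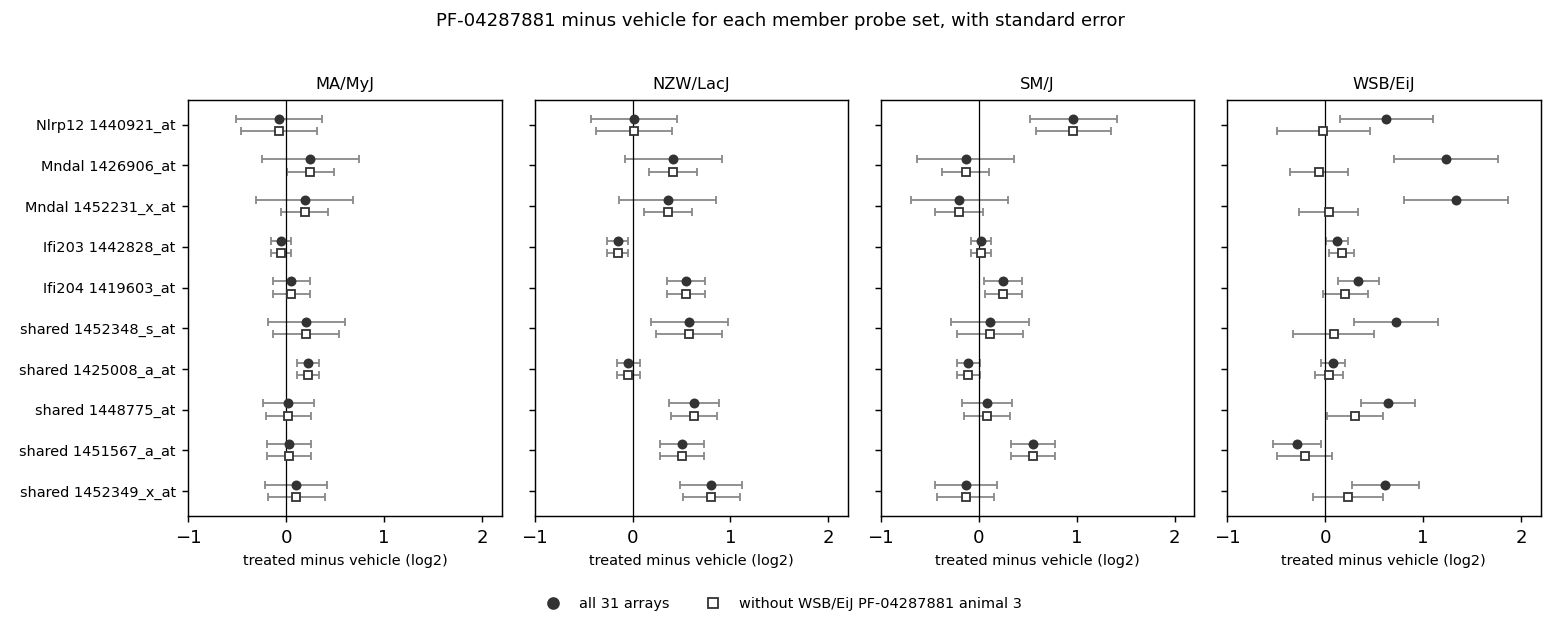
PF-04287881 minus vehicle in log2 units for each of the 10 probe sets in each strain, with the model's standard error as bars; filled circles use all 31 arrays and open squares leave out the array labelled WSB/EiJ treated animal 3. The WSB/EiJ Mndal values move from 1.24 and 1.34 to -0.06 and 0.04, while the values of the other strains are identical and their bars become shorter for Mndal.

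NZW/LacJ had the largest median difference of the strains once that array was left out. Ifi204 on 1419603_at was 5.33, 5.17, 5.05 and 5.24 in vehicle animals 1 to 4 and 5.95, 5.48, 5.10 and 6.44 in treated animals 1 to 4. Treated animals 1, 2 and 4 exceeded every vehicle animal and animal 3 did not. The difference was 0.54 ± 0.19 log2 units, 1.46-fold (limma, adjusted p = 0.0697). Shared probe set 1452349_x_at was 6.98, 7.17, 6.81 and 6.87 in vehicle and 7.90, 7.83, 6.60 and 8.73 in treated animals, a difference of 0.81 ± 0.32 (limma, adjusted p = 0.106), again with animal 3 apart. Shared probe set 1448775_at was 7.60, 7.56, 7.57 and 7.60 in vehicle and 8.59, 8.03, 7.43 and 8.80 in treated animals. Its difference was 0.63 ± 0.26 (limma, adjusted p = 0.123), and animal 3 lay below all vehicle animals.

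Treated NZW/LacJ animal 3 lay below the vehicle mean in all of the 10 probe sets but Nlrp12. For Mndal 1426906_at its value minus the vehicle mean was -0.65, and for animals 1, 2 and 4 it was 0.77, 0.40 and 1.14. On the scale of 5006 probe sets that separate vehicle from treated NZW/LacJ it lay at 0.905, and the other treated animals between 0.888 and 1.13. This animal helped to set the treated end of that scale, so its place there is no independent sign of a response. Its mean over the interferon signalling list was 0.31 above the vehicle mean, beside 0.88, 0.63 and 0.79. Its mean over the Kupffer list was -0.29, beside 0.79, 0.30 and 1.25, and the animals stood in the same order as on Mndal. They stood in that order on the monocyte list too, at 0.71, 0.29, 0.056 and 0.74 in animals 1 to 4, and on the dendritic cell list, at 0.26, 0.12, -0.038 and 0.36. Its sinusoidal endothelial mean was -0.77, beside -0.13, -0.41 and 0.26, which is that order again. The inflammasome list had it too, at 0.30, 0.29, 0.15 and 0.46 in animals 1 to 4. The hepatocyte list ran in the reverse order, at -0.092, -0.059, 0.012 and -0.16. An order of 4 animals cannot tell these lists apart. The neutrophil mean stayed between -0.09 and -0.01 in the 4 animals. The part of RNA of these cell types in the differences was not tested.

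**Figure D5:**
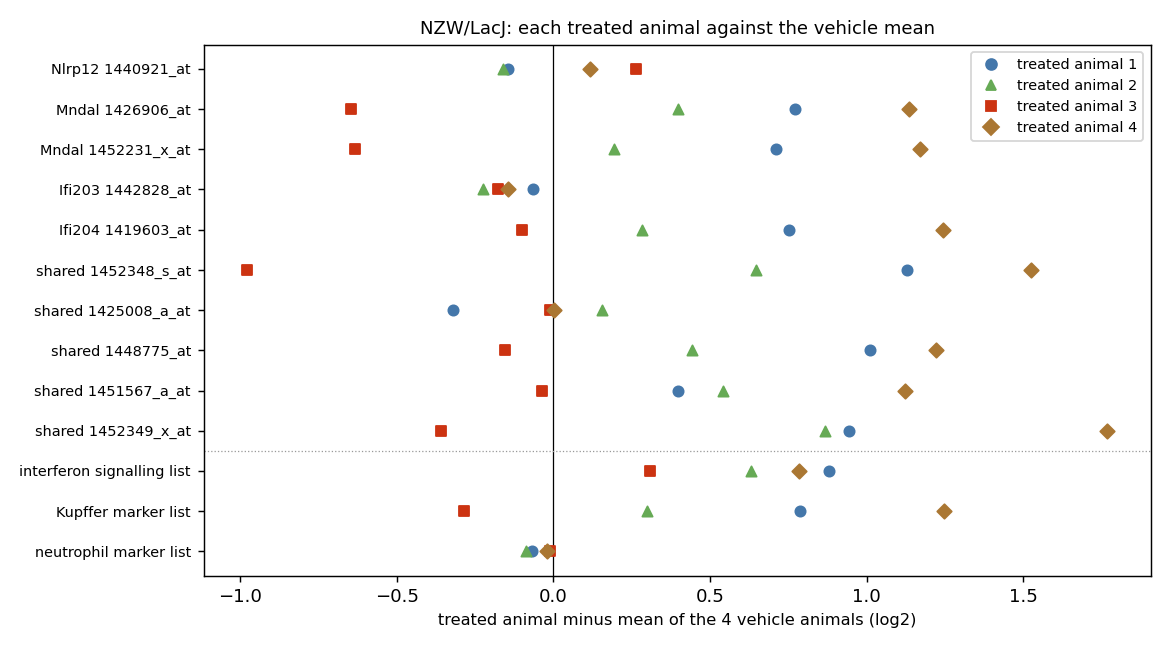
Each treated NZW/LacJ animal minus the mean of the 4 vehicle animals, in log2 units, for the 10 probe sets and, below the dotted line, for the mean of 3 gene lists. Animal 3 lies left of 0 on Mndal and on the shared probe sets other than 1425008_a_at, where it lies at 0, and also on the Kupffer list, while it lies right of 0 on the interferon list.

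Leaving out treated NZW/LacJ animal 3 was tried after its values were seen, so it describes how far 1 animal sets the result and is no test. Without it, 4 probe sets passed as higher in NZW/LacJ, against 6.17% of all probe sets. They were Ifi204 at 0.76 ± 0.18 (limma, adjusted p = 0.00665), 1452348_s_at at 1.10 (adjusted p = 0.0386), 1448775_at at 0.89 (adjusted p = 0.0194) and 1452349_x_at at 1.19 (adjusted p = 0.00621). Without both that animal and the array labelled WSB/EiJ treated animal 3, 7 probe sets passed, all higher, against 7.70%. Mndal was among them, at 0.77 ± 0.19 on 1426906_at (limma, adjusted p = 0.00739) and 0.69 ± 0.20 on 1452231_x_at (adjusted p = 0.0238). Nlrp12 stood at -0.06 ± 0.42 (limma, adjusted p = 0.953). With all arrays, the NZW/LacJ difference of Mndal was 0.41 ± 0.49 on 1426906_at and 0.36 ± 0.50 on 1452231_x_at (limma, adjusted p = 0.686 and 0.736). That of 1452348_s_at was 0.58 ± 0.40 (limma, adjusted p = 0.416). None of these passed without the array labelled WSB/EiJ treated animal 3 alone (limma, adjusted p = 0.299, 0.386 and 0.296).

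The mean of the 4 strain differences passed for 1 of the 10 probe sets, Ifi204, at 0.30 ± 0.10 log2 units (limma, adjusted p = 0.0473), where 12.3% of all probe sets passed. Without the array labelled WSB/EiJ treated animal 3 it was 0.26 ± 0.10 (limma, adjusted p = 0.0707). The count then became 0 of 10, against 18.4% of all probe sets. Of the 31 fits that each left out 1 array, 22 gave a count of 0, that array's among them. The strain-by-treatment F test passed for 0 of 10 probe sets with or without that array, against 9.69% and 16.5%. At an unadjusted p under 0.05, the mean of the strain differences passed for 3 of 10 with all arrays and 2 without that array. The strain-by-treatment test passed for 0 of 10 at that unadjusted threshold. The share of all probe sets there is not given, so these unadjusted counts are not read against a background. The smallest adjusted p of the strain-by-treatment test was 0.218, for shared probe set 1451567_a_at, and 0.282 without the array labelled WSB/EiJ treated animal 3.

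Of the other PYHIN genes, 2 of 4 measured rose in treated NZW/LacJ on their probe set with the highest mean, where 6.45% of all probe sets rose. Ifi209 rose on its other probe set alone. In the other strains 0 of the 6 probe sets passed by limma. Ifi209 rose on 1435331_at by 0.87 ± 0.27 log2 units (limma, adjusted p = 0.0305) and was at 0.46 ± 0.15 on 1435330_at (adjusted p = 0.0542). Ifi207 rose by 0.83 ± 0.26 (limma, adjusted p = 0.0373) and Ifi213 by 0.35 ± 0.11 (adjusted p = 0.0334). Both were low, with NZW/LacJ vehicle means of 3.69 and 3.60, and whether these levels exceed background was not tested. With the array labelled WSB/EiJ treated animal 3 left out, 1435330_at passed as well (limma, adjusted p = 0.0362), where 7.96% of all probe sets rose. Among treated NZW/LacJ animals the mean of this list, taken over the probe set with the highest mean of each gene, again ran lowest in animal 3, at -0.13, with a highest value of 0.65. The strain-by-treatment test did not pass for any of these probe sets with all arrays. Without the array labelled WSB/EiJ treated animal 3 it passed for 1, Ifi202b 1457666_s_at (limma, adjusted p = 0.0444), whose differences were then 0.81 ± 0.25 in SM/J and 0.77 ± 0.30 in WSB/EiJ and below 0 in MA/MyJ and NZW/LacJ, with none of the 4 passing on its own.

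The pathway and marker lists are read against the shares of all probe sets that passed. In the order MA/MyJ and NZW/LacJ, then SM/J and WSB/EiJ, 1.32%, 6.45%, 0.636% and 3.06% of all probe sets rose and 0.764%, 4.77%, 0.383% and 6.55% fell. Without the array labelled WSB/EiJ treated animal 3, 7.25% rose and 10.7% fell in WSB/EiJ, and 7.96% rose and 6.11% fell in NZW/LacJ.

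The interferon signalling list had 22 of 24 genes measured, and 7 rose and 0 fell in treated NZW/LacJ. Usp18, which dampens interferon receptor signalling, rose by 2.33 ± 0.47 log2 units (limma, adjusted p = 0.00125). Oas1a, an RNA-sensing enzyme, rose by 1.39 ± 0.26 (adjusted p = 0.000682), and Ifit2, which binds foreign RNA, by 1.31 ± 0.32 (adjusted p = 0.00598). In MA/MyJ and SM/J 0 of 22 passed by limma. In WSB/EiJ 2 rose and 2 fell, and without the array labelled animal 3 it was 3 and 3, with 10 rising in NZW/LacJ. The list's median difference in NZW/LacJ was 0.48 beside 0.46 for the 10 probe sets and -0.03 for all. The lists were chosen with earlier results of these data known, so they are no independent evidence of direction.

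The cytosolic DNA sensing list had 15 of 16 genes measured. In treated NZW/LacJ 3 rose and 1 fell. Irf7, the interferon regulatory factor that amplifies type I interferon, rose by 1.89 ± 0.35 log2 units (limma, adjusted p = 0.000503). Ikbke, a kinase upstream of it, rose by 1.41 ± 0.25 (adjusted p = 0.000282), and Zbp1, a sensor of Z-form nucleic acid, by 0.54 ± 0.15 (adjusted p = 0.0198). In WSB/EiJ 0 rose and 2 fell, Ikbke at -1.29 ± 0.27 and Irf3 at -0.90 ± 0.14 (limma, adjusted p = 0.00183 and 0.000111). Without the array labelled animal 3 these were -1.10 ± 0.29 and -1.11 ± 0.13 (limma, adjusted p = 0.00839 and 1.01e-06), Samhd1 rose in WSB/EiJ, and 2 genes rose in MA/MyJ where 0 had.

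The inflammasome list had 21 of 26 genes measured. In NZW/LacJ 6 rose, led by Il1rn, the interleukin-1 receptor antagonist, at 1.64 ± 0.33 log2 units (limma, adjusted p = 0.00125). Nlrp6, another NOD-like receptor, rose by 0.88 ± 0.21 (adjusted p = 0.00508), and Il18bp, which neutralises interleukin-18, by 0.87 ± 0.22 (adjusted p = 0.0101). In MA/MyJ 1 passed, Il18bp, at 1.33 ± 0.22 (limma, adjusted p = 0.00102). In WSB/EiJ 3 rose and 2 fell, among them Il1rn at -1.82 ± 0.36 and Gsdmd, the pore-forming gasdermin D, at -0.88 ± 0.13. Il1rn thus rose in NZW/LacJ and fell in WSB/EiJ, where it was -1.52 ± 0.39 (limma, adjusted p = 0.00586) without the array labelled animal 3. Gsdmd was then at -1.01 ± 0.14 (limma, adjusted p = 8.15e-06), and 3 genes rose and 3 fell.

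The list of NF-κB signalling genes around Nlrp12 had 15 of 18 genes measured. In NZW/LacJ 1 rose, Irak1, a kinase below interleukin-1 and Toll-like receptors, at 0.27 ± 0.07 log2 units (limma, adjusted p = 0.0104). In WSB/EiJ Irak1 fell by 0.34 on the log2 scale (adjusted p = 0.00313), and by 0.25 (adjusted p = 0.0230) without the array labelled animal 3. In MA/MyJ and SM/J 0 of 15 passed by limma. Without the array labelled WSB/EiJ treated animal 3, 6 rose in WSB/EiJ, among them Nfkb2 at 0.80 ± 0.17, Traf6 at 0.75 ± 0.20 and Nfkbia, an inhibitor of NF-κB, at 0.74 ± 0.21 (limma, adjusted p = 0.00129, 0.00834 and 0.0111).

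Macrophage markers rose in treated livers of 3 strains. Of the 14 Kupffer markers, 8 rose in WSB/EiJ, 2 in NZW/LacJ, 7 in MA/MyJ and 0 in SM/J, and 0 fell with all arrays; without the array labelled WSB/EiJ treated animal 3, 8 rose and 1 fell in WSB/EiJ. Vsig4, a complement receptor of Kupffer cells, rose by 1.38 ± 0.26 log2 units in MA/MyJ, by 1.48 ± 0.28 in WSB/EiJ and by 0.78 ± 0.26 in NZW/LacJ (limma, adjusted p = 0.00304, 0.000725 and 0.0479). In WSB/EiJ it was 1.46 ± 0.32 (limma, adjusted p = 0.00142) without that array. The Kupffer list mean ran from 8.85 to 9.16 in vehicle and from 9.46 to 10.22 in treated MA/MyJ. It ran from 9.38 to 9.82 in vehicle and from 9.27 to 10.80 in treated NZW/LacJ. It ran from 8.11 to 8.71 in vehicle WSB/EiJ and was 9.38 and 9.30 in treated animals 1 and 2 and 9.66 in the array labelled animal 3. Of the 7 monocyte markers measured, 2 rose in MA/MyJ and 3 in NZW/LacJ, led in both by Lyz2, at 1.67 ± 0.29 and 1.46 ± 0.29 (limma, adjusted p = 0.00147 and 0.00108). Of the 10 neutrophil markers 0 passed in any strain by limma, and 1, S100a8, passed in WSB/EiJ without the array labelled animal 3. Of 8 dendritic cell markers measured, 1 rose and 1 fell in MA/MyJ and 1 rose in NZW/LacJ. Of 9 sinusoidal endothelial markers, 1 rose in MA/MyJ, 1 rose and 2 fell in NZW/LacJ, and 1 rose and 1 fell in WSB/EiJ, where 1 rose and 3 fell without that array. Without it, 1 rose and 2 fell in MA/MyJ and 1 rose and 3 fell in NZW/LacJ. Of 8 hepatocyte markers 1 rose in NZW/LacJ, and 0 of 8 T and NK cell markers and 0 of 5 B cell markers passed in any strain by limma with all arrays. Without the array labelled WSB/EiJ treated animal 3, 1 hepatocyte marker also rose in MA/MyJ and 1 monocyte marker rose in WSB/EiJ.

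Genes whose profile over the 31 arrays was most like that of Nlrp12 or Mndal were found by the root mean square difference after centring each on its mean. For Nlrp12 they were Armc10, Sdr9c7 and Septin10, at 0.85, 0.91 and 0.98 log2 units, on chromosomes 5, 10 and 10. Sdr9c7 had vehicle means of 11.42, 10.47, 7.12 and 9.49 in MA/MyJ and NZW/LacJ, then SM/J and WSB/EiJ, which is the strain order of Nlrp12. Armc10 and Septin10 had that order too. These genes were picked for their likeness to Nlrp12, so the shared order is no separate result. For Mndal 1452231_x_at the nearest were Septin10, Tlr12 and Snrnp25, at 0.73, 0.73 and 0.74, on chromosomes 10, 4 and 11. None of these genes lay on chromosome 1 or 7, where the Ifi200 cluster and Nlrp12 are. Only probe sets with a single symbol were compared, without unnamed loci and the gene itself. The shared probe sets of the cluster could therefore not appear.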

How the data were processed

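Left liver lobe RNA of 31 mice was measured on 1-colour Affymetrix arrays. The deposited values are log2 signals per probe set that the authors made with Affymetrix Power Tools and RMA, per the submitters' processing notes. RMA corrects background, normalises arrays by quantiles and summarises the probes of a set, so probes that bind poorly in 1 strain could lower a set's value there. The sources used here name no versions, detection calls or time of scanning. Values ran from 2.71 to 14.9 and array medians from 6.43 to 6.54. The number of arrays limits the precision.

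From these, limma 3.58.1 in R 4.3.3 (with data.table, version 1.17.8) fitted 1 mean for each of 8 groups to all 44661 probe sets other than controls, with eBayes and Benjamini-Hochberg adjustment over all of them at 0.05, two-sided. Errors after ± are standard errors of a difference unless given as SD. No filter on dim probe sets was applied, so that every probe set of the genes was kept; 8 of the 10 pass the filter used as an alternative. A list's gene stands for its probe set with the highest mean, and a list's mean for an animal averages its genes. Symbols came from the array annotation, where 34728 probe sets carry 1 symbol, 872 several and 9121 none; Biopython 1.88 aligned promoter windows. The fit was tested on simulated data.

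The genes and lists were chosen with earlier results of these data known. All probe sets with a single symbol of a member were named; for each list and strain, at most 3 genes with the largest difference among those that passed; and for genes whose vehicle means span at least 1 log2 unit, the 3 nearest profiles. The shared probe sets are named by their identifiers. Nothing in the labels says that animal numbers pair mice across groups. Alternatives were leaving out each array, a dim filter, 1 probe set per gene, median centring, an intensity trend, array weights, the animal number as a block and each strain fitted alone.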

Additional observations from a re-analysis of the deposited data

Results flagged for a closer look

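Of 70 groups of 4 animals tested for an animal far from the other 3, 2 stood out. Chance gives about 1 in 20, and 2 of 70 is below that rate. Nlrp12 in SM/J vehicle animal 1 was at 7.51 in log2 units, with the other 3 vehicle animals between 5.42 and 5.73. Without it the difference between treated and vehicle SM/J was 1.44 rather than 0.97, and it still did not pass (limma, adjusted p = 0.117). Shared probe set 1451567_a_at in WSB/EiJ vehicle animal 4 was at 7.36, with the others between 6.39 and 6.42. That animal was also the lowest of the 6 other WSB/EiJ arrays on the strain scale, at 0.751, and the highest of its group on the interferon signalling list, at 0.63 above the group mean. The part of either in its level was not tested.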

How the results depend on the processing

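Results are differences between PF-04287881 and vehicle in log2 units, or counts of the 10 probe sets that passed. The cause of a change was not tested. Counts in this section have no share of all probe sets beside them and are not read against a background. The count in NZW/LacJ, 0 with all arrays, ranged from 0 to 4 when 1 array was left out, the 4 being reached without treated NZW/LacJ animal 3. It was 1 with arrays centred on their medians, 3 with array weights, 1 without the array labelled WSB/EiJ treated animal 3 and WSB/EiJ vehicle animal 4, and 7 without that array and treated NZW/LacJ animal 3, an alternative chosen after seeing the data. The count in WSB/EiJ ranged from 0 to 2, the 2 being reached without treated animal 1 or 2, each of which leaves the array labelled animal 3 and 1 other; that in SM/J became 1 with array weights. The count for the mean of the 4 strains, 1 with all arrays, ranged from 0 to 4 when 1 array was left out. It was 0 of 8 with the dim filter, 0 of 2 with 1 probe set per gene and 2 with array weights. It was 3 without both animals 3, where the strain-by-treatment count was 1. Ifi204, the probe set that passed with all arrays, is removed by the dim filter, so the 0 of 8 and 0 of 2 did not retest it. The count among treated animals, 8, was 2 of 2 with 1 probe set per gene, where fewer probe sets were tested, and did not move by over 1.5 times under the other alternatives.

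For animals that share a number, deviations from the group means correlated between -0.439 and 0.328 over 15 pairs, 3 of them above 0.1. The lowest was the pair with the array labelled WSB/EiJ treated animal 3. These values showed no general pairing of the mice but cannot exclude one. With the animal number as a replicate block the count in NZW/LacJ was 1.

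Differences that changed sign were near 0 with all arrays, other than in WSB/EiJ. There Nlrp12 became -0.016 without the array labelled treated animal 3, and -0.51 without vehicle animal 4 as well, where shared probe set 1451567_a_at became 0.032, and Mndal 1426906_at became -0.060 without the first array. Without both animals 3, Nlrp12 in NZW/LacJ became -0.062. Ifi203 over the 4 strains became 0.00281 without both WSB/EiJ arrays, 0.00189 with centring and 0.00531 with array weights. Array weights also turned 1452348_s_at in SM/J to -0.068 and 1425008_a_at in WSB/EiJ to -0.051. With 1 array left out, the ranges in MA/MyJ were -0.20 to 0.075 for Nlrp12, -0.079 to 0.19 for Ifi204, -0.080 to 0.14 for 1448775_at, -0.11 to 0.16 for 1451567_a_at and -0.011 to 0.24 for 1452349_x_at. In NZW/LacJ they were -0.062 to 0.11 for Nlrp12 and -0.11 to 0.050 for 1425008_a_at. In SM/J they were -0.071 to 0.088 for Ifi203, -0.048 to 0.24 for 1452348_s_at, -0.17 to 0.012 for 1425008_a_at, -0.039 to 0.33 for 1448775_at and -0.27 to 0.11 for 1452349_x_at. In WSB/EiJ they were -0.016 to 1.09 for Nlrp12, -0.060 to 1.90 for Mndal 1426906_at and -0.027 to 0.22 for 1425008_a_at. For Ifi203 over the 4 strains the range was -0.038 to 0.00985.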
